A study of Mus musculus with 12 samples.

Results

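The unfolded protein response and the integrated stress response were followed through 10 genes chosen by symbol: *Eif2ak3*, *Ern1*, *Atf6*, *Atf4*, *Xbp1*, *Ddit3*, *Trib3*, *Asns*, *Sesn2* and *Herpud1*. All 10 were among the 13232 genes of the deposited expression table. The cells were bone marrow-derived macrophages, grown from mouse marrow with the growth factor M-CSF, from wild-type C57B6/J mice whose feed was normal (ND) or rich in fat (HFD). Each diet was represented by 3 libraries of cells kept for 1 h at 1% oxygen on day 7, after a change to serum-free medium on day 4. Both groups compared were therefore under hypoxia. Libraries kept at normal oxygen were not analysed here, so nothing is said about the response to hypoxia itself. The labels do not give the animals' age or sex, the length of feeding, or whether each library came from its own mouse, so the tests measure the spread between these libraries, which may be technical.

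Both responses slow protein synthesis and change gene expression when proteins misfold in the endoplasmic reticulum (ER) or when amino acids run short. PERK (encoded by *Eif2ak3*), IRE1 (*Ern1*) and ATF6 are the sensors in the ER membrane. PERK and its sister kinases phosphorylate the initiation factor eIF2, which lowers general translation but favours translation of *Atf4* mRNA. IRE1 removes an intron from *Xbp1* mRNA in the cytoplasm, and ATF6 is cut in the Golgi to release a transcription factor. These steps act on translation, splicing and protein cleavage, and values per gene do not report on them; what was measured is the amount of RNA from each gene. In macrophages the same pathways are engaged by lipid loading, by inflammatory stimuli and by low oxygen.

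Promoter sequence was available for 9 of the 10 genes, all except *Atf6*, from RefSeq on GRCm38.p6 (mm10), and the 250 bases before each start site were searched on both strands. The CARE motif, TGATGNAA, through which ATF4 acts with C/EBP partners, was found before *Asns* and *Herpud1*, and in 3.45% of all 32841 promoter windows. The ER stress element ERSE-II, ATTGG and CCACG with 1 base between them, was found before *Herpud1* and in 0.0304% of windows. The longer ERSE, CCAAT and CCACG with 9 bases between them (0.113% of windows), the XBP1 element TGACGTGG (0.563%) and the cyclic AMP element TGACGTCA (1.55%) were in none of the 9 windows. The stretches holding the matches are shown for *Asns* and *Herpud1*, the only ones of the 9 genes with a match. Capitals mark the motifs, CARE in *Asns* and, in *Herpud1*, CARE and then ERSE-II. The *Asns* stretch is chr6:7693210-7693262 on the minus strand, from 53 bases to 1 base before the start. The *Herpud1* stretch is chr8:94386287-94386417 on the plus strand, from 142 to 12 bases before the start, with CARE read on the opposite strand.
Asns: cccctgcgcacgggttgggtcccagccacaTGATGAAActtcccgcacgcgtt
Herpud1: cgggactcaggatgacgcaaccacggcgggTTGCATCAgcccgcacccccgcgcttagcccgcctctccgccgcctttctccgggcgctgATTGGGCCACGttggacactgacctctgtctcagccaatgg

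Estimated depths were about 19046400 to 22805200 reads in ND and 23017000 to 24491500 in HFD, and ND replicate 3 was the shallowest. On the first principal component of 10794 genes with a mean of at least 100, which held 43.3% of the variance, ND replicates 1 and 2 scored -14.0 and -13.5, HFD replicates 2 and 3 scored 11.3 and 11.4, and HFD replicate 1 (1.33) and ND replicate 3 (3.43) lay between them. ND replicate 3 thus stood apart from the other ND libraries, and the limma tests between diets were also made without it. All 8 macrophage markers searched (*Adgre1*, *Csf1r*, *Cd68*, *Itgam*, *Mertk*, *Fcgr1*, *Cd14* and *Lyz2*) were in the table, with summed levels of 345313 to 395574 in ND and 342872 to 402478 in HFD. None of 6 B cell or 6 erythroid markers was listed. Of 5 plasma cell markers, a cell type rich in *Xbp1*, *Sdc1* and *Prdm1*, which macrophages also express, were listed and *Jchain*, *Mzb1* and *Tnfrsf17* were not. The sum of *Sdc1* and *Prdm1* did not overlap between the diets (1984 to 2114 in ND and 2255 to 2641 in HFD). Neither did *Kit*, the single one of 5 mast cell markers in the table (117 to 226 in ND and 72.4 to 104 in HFD). Of all genes, 14.5% had no overlap between the diets. The 6 of 10 neutrophil markers in the table summed to 1712 to 2455 in ND and 2109 to 3429.7 in HFD, *Cd4*, the single one of 7 T cell markers, was at 202 to 356 in ND and 98.1 to 230.0 in HFD, and *Batf3*, the single one of 6 dendritic cell markers, was at 52.8 to 68.5 in ND and 51.8 to 65.6 in HFD, all with overlap. The part of other cell types in the values below was not tested. In bulk RNA, fewer cells of a type and less RNA per cell cannot be told apart.

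None of the 10 genes differed between the diets at an adjusted p of 0.05 (limma, Benjamini-Hochberg over all genes), which was also true of all 13232 genes (0%). At an unadjusted p under 0.05 there were 0 of the 10, against 10.6% of all genes (5.4% higher and 5.18% lower in HFD). That count depended on single libraries and on the fit. It was 5 of the 10 without ND replicate 3 (*Atf4*, *Ern1*, *Trib3*, *Asns* and *Herpud1*), against 17.5% of all genes, and 4 without HFD replicate 1 (the same genes except *Atf4*), against 12.6%. Leaving out each of the other 4 libraries in turn kept it at 0, against 5.29% to 9.17% of all genes. With array weights, a fit that gives noisier libraries less weight, it was 5 of the 10, against 27.6% of all genes, and with quantile normalization 1 of the 10, against 10.5%. The adjusted test without ND replicate 3 called 0 of the 10 and 1.76% of all genes. Values per library are given throughout in the order of replicates 1 to 3. *Asns* and *Trib3*, both targets of ATF4, had the largest estimates, with log2 fold changes (HFD minus ND, on log2 of the value + 1) of 0.46 and 0.50. *Herpud1* (-0.22) and *Ern1* (-0.18) had the most negative ones, and *Xbp1*, *Atf6* and *Sesn2* lay between -0.018 and 0.034. The median of the 10 was 0.0065, with 5 estimates above 0 and 5 below, and that of all genes was -0.0034. Only for *Eif2ak3* did the libraries of the diets not overlap, 1 gene of 10 against 14.5% of all genes.

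**Figure D1:**
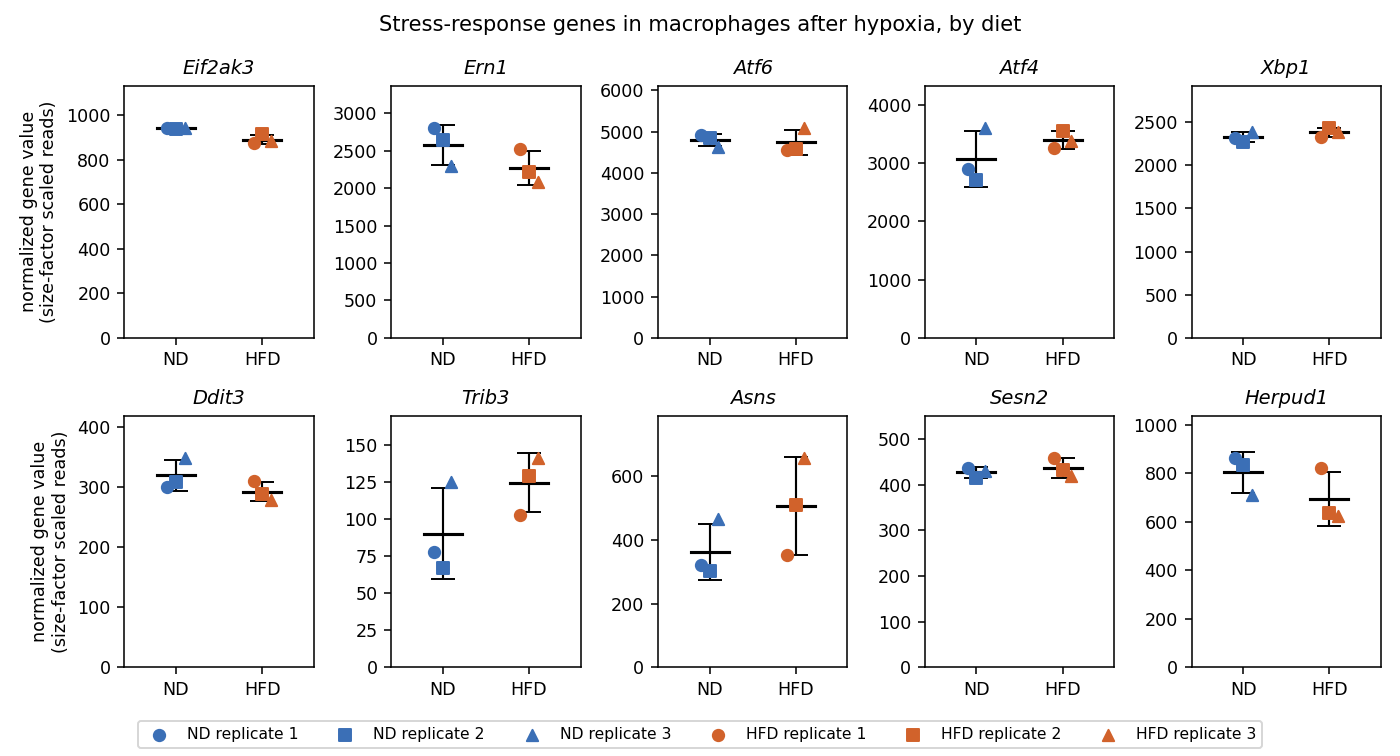
Normalized value (vertical axis, size-factor scaled reads, starting at 0) of each of the 10 genes in the 3 ND (blue) and 3 HFD (orange) libraries, with marker shapes for replicates 1 to 3 and black bars for the mean and SD. ND replicate 3 (blue triangle) lies among the HFD values for *Asns*, *Trib3*, *Ern1* and *Herpud1*, and the diets overlap in every panel except that of *Eif2ak3*.

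Levels were compared between genes per kilobase of merged exons (GENCODE M21), as the mean ± SD of 6 libraries. *Atf4* was the most abundant at 1374 ± 154, followed by *Xbp1* (725 ± 17.9) and *Atf6* (517 ± 23.4), and the ranges of these 3 did not overlap. *Herpud1* (321 ± 45.4) and *Ern1* (297 ± 33.9) came next with overlapping ranges, although *Herpud1* was above *Ern1* in 6 of 6 libraries. *Ddit3* (179 ± 14.2), *Asns* (159 ± 49.9), *Eif2ak3* (152 ± 5.02) and *Sesn2* (124 ± 4.63) followed. The wide range of *Asns* (111 to 240.4) overlapped those of the other 3, which did not overlap each other, *Asns* being above *Eif2ak3* in 3 of 6 libraries. *Trib3* (50.5 ± 14.1) was lowest, below the range of each other gene. The factor that carries the ATF4 arm was therefore the most abundant RNA of the set and its target *Trib3* the least.

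**Figure D2:**
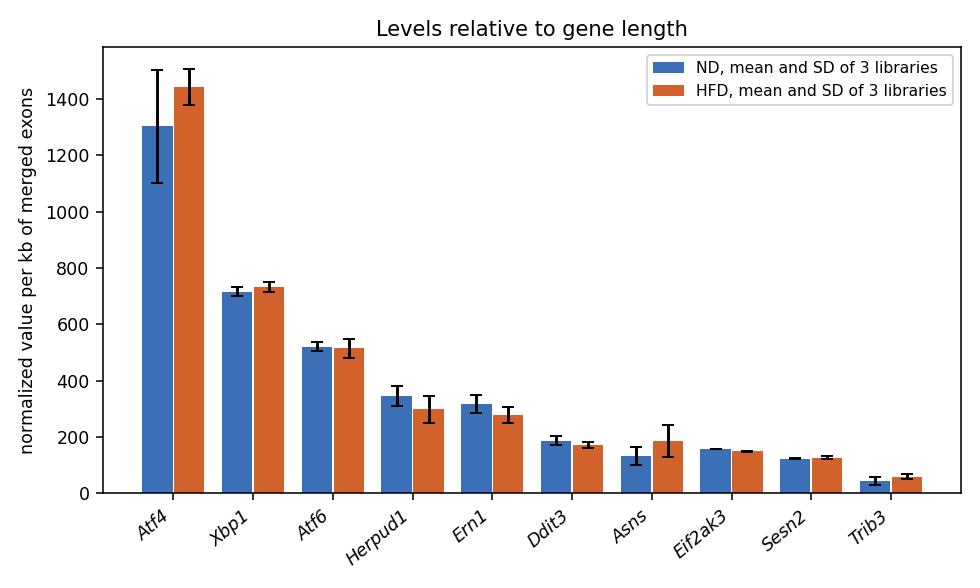
Normalized value per kilobase of merged exons (vertical axis, starting at 0) for the 10 genes in falling order, with bars for the mean of 3 ND (blue) and 3 HFD (orange) libraries and error bars for the SD. *Atf4* stands highest and *Trib3* lowest, and the error bars of *Asns* are wide beside those of *Eif2ak3* and *Sesn2*.

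The sensors come first. *Eif2ak3* (chr6:70844484-70905241), which encodes PERK, had values of 941, 936 and 943 for ND against 874, 914 and 884 for HFD. All 3 HFD libraries lay below all 3 ND libraries. The difference was small (940.0 ± 3.36 for ND against 891 ± 20.8 for HFD, SD, n = 3; log2 fold change -0.078, SE 0.062, limma adjusted p 0.705), with an interval of -0.22 to 0.060. Of all genes, 7.07% had every HFD library below every ND library. An antisense gene, *Gm43292*, overlaps *Eif2ak3* exons and is not in the table, and *Eif2ak3* was the member whose estimated reads were most often not whole. How reads shared by the pair were assigned was not tested.

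*Ern1* (chr11:106397620-106487796), which encodes the kinase and nuclease IRE1, had values of 2808, 2644 and 2291 for ND against 2521, 2218 and 2080.4 for HFD. ND replicates 1 and 2 were highest and HFD replicate 3 lowest, and ND replicate 3 was below HFD replicate 1. The means were 2581 ± 264 for ND against 2273 ± 225 for HFD (SD, n = 3; log2 fold change -0.18, SE 0.094, limma adjusted p 0.544, interval -0.39 to 0.027). Leaving out 1 library moved the *Ern1* estimate to between -0.27 (without ND replicate 3) and -0.12 (without ND replicate 1). *Atf6* (chr1:170704457-170868585) had values of 4915, 4849 and 4630.3 for ND against 4549.9, 4587 and 5092 for HFD. Its highest and its lowest value both came from HFD libraries, and the estimate was near 0 (log2 fold change -0.018, SE 0.065, limma adjusted p 0.947). Its interval, -0.16 to 0.13, leaves room for a difference of that size in either direction. The sign of the *Atf6* estimate turned without HFD replicate 1 (0.011) or HFD replicate 2 (0.0051).

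*Atf4* (chr15:80255184-80257545), the transcription factor at the centre of the integrated stress response, had values of 2899, 2713 and 3609.9 for ND against 3261, 3564 and 3392 for HFD. ND replicates 1 and 2 were below all HFD libraries, while ND replicate 3 was the highest of the 6. The means were 3074 ± 474 for ND against 3405 ± 152 for HFD (SD, n = 3; log2 fold change 0.16, SE 0.10, limma adjusted p 0.624, interval -0.064 to 0.38). Without ND replicate 3 the *Atf4* estimate was 0.28 (limma adjusted p 0.0701), and without ND replicate 2 it was 0.073.

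*Xbp1* (chr11:5520641-5525993), which encodes the factor activated by IRE1, had values of 2317, 2275 and 2385 for ND against 2323, 2434 and 2387 for HFD. These values spanned 1.07-fold, and the SD of its log2 values over the 6 libraries (0.036) was smaller than that of all but 1.47% of genes. The interval of its difference, -0.093 to 0.16, was also the narrowest of the 10 (log2 fold change 0.034, SE 0.057, limma adjusted p 0.875). Leaving out 1 library gave 0.018 (HFD replicate 2) to 0.052 (ND replicate 3). Spliced and unspliced *Xbp1* were not separated in the values.

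*Ddit3* (chr10:127290793-127296291), which encodes the stress factor CHOP, had values of 301, 309 and 349.5 for ND against 310.0, 289.5 and 279 for HFD. ND replicate 3 was highest and HFD replicates 2 and 3 lowest, with HFD replicate 1 above ND replicates 1 and 2 (log2 fold change -0.13, SE 0.10, limma adjusted p 0.690, interval -0.34 to 0.088). Without ND replicate 3 the *Ddit3* estimate shrank to -0.061. *Ddit3* overlaps *Mars1* on the opposite strand. The libraries were made with a stranded kit, but whether the counting used strand is not given in the sources used here, so reads of the pair may have been mixed. Relative to *Atf4* in the same library, *Ddit3* was 0.104, 0.114 and 0.0968 for ND against 0.0951, 0.0812 and 0.0822 for HFD. This ratio was lower in every HFD library than in every ND library, as it was for 8.15% of all genes set against *Atf4*. It was the only one of 7 ratios between members for which the diets did not overlap, and it was chosen after the values were seen.

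*Asns* (chr6:7675165-7693209) encodes asparagine synthetase, a textbook target of ATF4 with the CARE motif shown above just before its start. Its values were 320.3, 303 and 464 for ND against 352, 508 and 657 for HFD. HFD replicates 2 and 3 were the highest, ND replicates 1 and 2 the lowest, and HFD replicate 1 fell below ND replicate 3. The means were 363 ± 88.4 for ND against 506 ± 153 for HFD (SD, n = 3; log2 fold change 0.46, SE 0.22, limma adjusted p 0.511). The interval ran from -0.034 to 0.95, which takes in no difference as well as a change of nearly 1 on the log2 scale. The estimate was 0.25 without HFD replicate 3 and 0.70 without HFD replicate 1. The values spanned 2.17-fold, and their SD over the 6 libraries was larger than in 96.0% of genes.

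*Trib3* (chr2:152337425-152344060) encodes a pseudokinase that is induced by ATF4 and CHOP and restrains both. Its values were 77.8, 67.5 and 125 for ND against 103, 129 and 142 for HFD. The 6 libraries stood in the same order as for *Asns*: ND replicate 2, ND replicate 1, HFD replicate 1, ND replicate 3, HFD replicate 2 and HFD replicate 3. The means were 90.2 ± 30.8 for ND against 125 ± 19.9 for HFD (SD, n = 3; log2 fold change 0.50, SE 0.23, limma adjusted p 0.486, interval -0.012 to 1.01). Over the fits that each left out 1 library, the *Trib3* estimate ran from 0.32 (ND replicate 2 left out) up to 0.76 (ND replicate 3 left out). *Trib3* was the least covered of the 10, at 69 to 156 estimated reads per library, so counting error alone was 12.0% of the value in the library with the fewest. With limma array weights, *Trib3* was the single member to pass the threshold (0.65, limma adjusted p 0.0414), in a fit that called 8.56% of all genes. *Asns* did not pass in that fit (0.57, limma adjusted p 0.0503). Over the other alternatives the adjusted p of *Trib3* ran up to 0.956.

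The ratio of *Asns* to *Trib3* within a library had a narrower spread than either gene, at 4.12, 4.49 and 3.71 for ND against 3.43, 3.93 and 4.64 for HFD. Relative to *Atf4*, *Asns* was 0.111, 0.112 and 0.129 for ND against 0.108, 0.142 and 0.194 for HFD, and the diets overlapped. *Trib3* relative to *Atf4* was 0.0269, 0.0249 and 0.0347 for ND against 0.0315, 0.0363 and 0.0418 for HFD, again with overlap. Both ratios were highest in HFD replicate 3.

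*Sesn2* (chr4:132492804-132510456), which encodes Sestrin 2, a leucine-binding brake on mTORC1 that is induced by ATF4, had values of 436, 414 and 429.8 for ND against 459, 431 and 418 for HFD. HFD replicate 1 was highest and ND replicate 2 lowest, within a 1.11-fold span, and *Sesn2* did not share the library order of *Asns* and *Trib3* (log2 fold change 0.031, SE 0.078, limma adjusted p 0.919, interval -0.14 to 0.21). Without HFD replicate 1 its estimate was -0.0065, a change of sign.

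*Herpud1* (chr8:94386429-94395371) encodes an ER membrane protein that helps degrade misfolded proteins, and its promoter carries both the ERSE-II and the CARE match. Its values were 865, 836 and 709.7 for ND against 820.3, 637 and 623 for HFD. ND replicates 1 and 2 and HFD replicate 1 were highest, ND replicate 3 was lower, and HFD replicates 2 and 3 were lowest. The means were 804 ± 82.6 for ND against 693 ± 110.1 for HFD (SD, n = 3; log2 fold change -0.22, SE 0.12, limma adjusted p 0.566, interval -0.48 to 0.045). It was -0.15 without HFD replicate 3 and -0.35 without HFD replicate 1. From highest to lowest, *Herpud1* and *Ern1* put the 6 libraries in the same order: ND replicate 1, ND replicate 2, HFD replicate 1, ND replicate 3, HFD replicate 2 and HFD replicate 3.

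**Figure D3:**
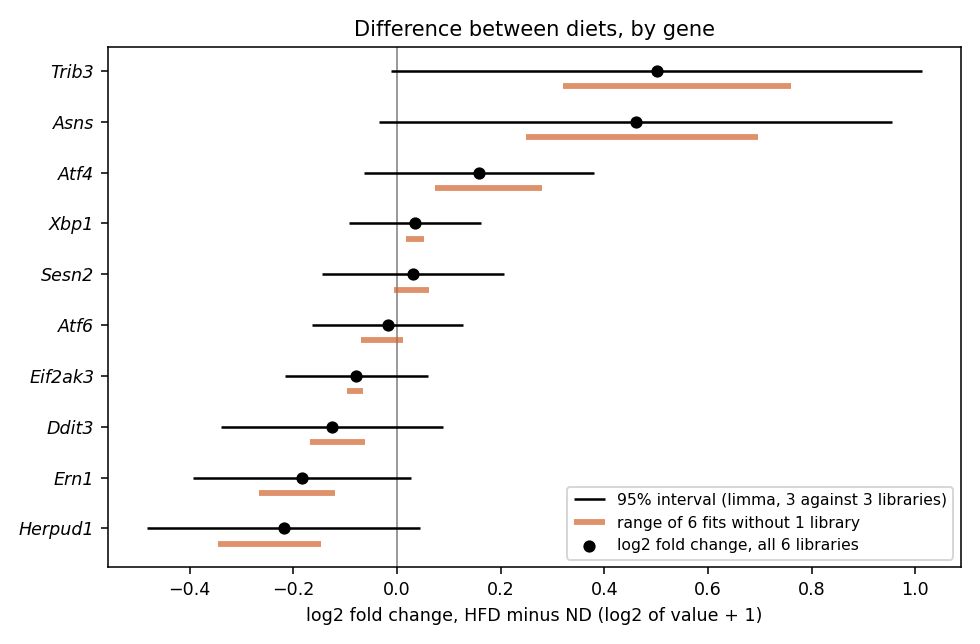
Log2 fold change between diets (horizontal axis, HFD minus ND) for each of the 10 genes, with the 95% interval from limma (black line) and the range of the estimates when each of the 6 libraries was left out in turn (orange line). Every 95% interval includes 0, and the orange ranges of *Atf6* and *Sesn2* cross 0.

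*Ern1* and *Herpud1* followed the order of the first principal component exactly, in the opposite direction, and *Asns* and *Trib3* followed it apart from an exchange of ND replicates 1 and 2. With those 2 libraries in either order, these 4 of the 10 genes followed it, and 3.84% of the 10794 genes did. This way of counting was chosen after the order of the 4 had been seen, so nothing is read from the comparison. *Atf4* shared its low end, with ND replicates 1 and 2 lowest and HFD replicate 1 next. ND replicate 3, the shallowest library, deviated from the mean of each gene by 0.15 for *Asns*, 0.27 for *Trib3*, 0.16 for *Atf4*, -0.075 for *Ern1* and -0.064 for *Herpud1* on the log2 scale, each time away from the other ND libraries. HFD replicate 1, at -0.24 for *Asns* and 0.14 for *Herpud1*, was on the side of ND replicates 1 and 2 for those genes. By depth, the other 5 libraries stood in the order of the component, from 22181100 reads in ND replicate 1 through 22805200, 23017000 and 23552200 to 24491500 in HFD replicate 3, while ND replicate 3, with 19046400, did not. The part of depth or of the component in the difference between diets was not tested. Of the 10 genes, ND replicate 2 was the lowest library in 5, and ND replicate 3 and HFD replicate 3 were each the highest in 3. HFD replicate 3 was also the lowest in 3.

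**Figure D4:**
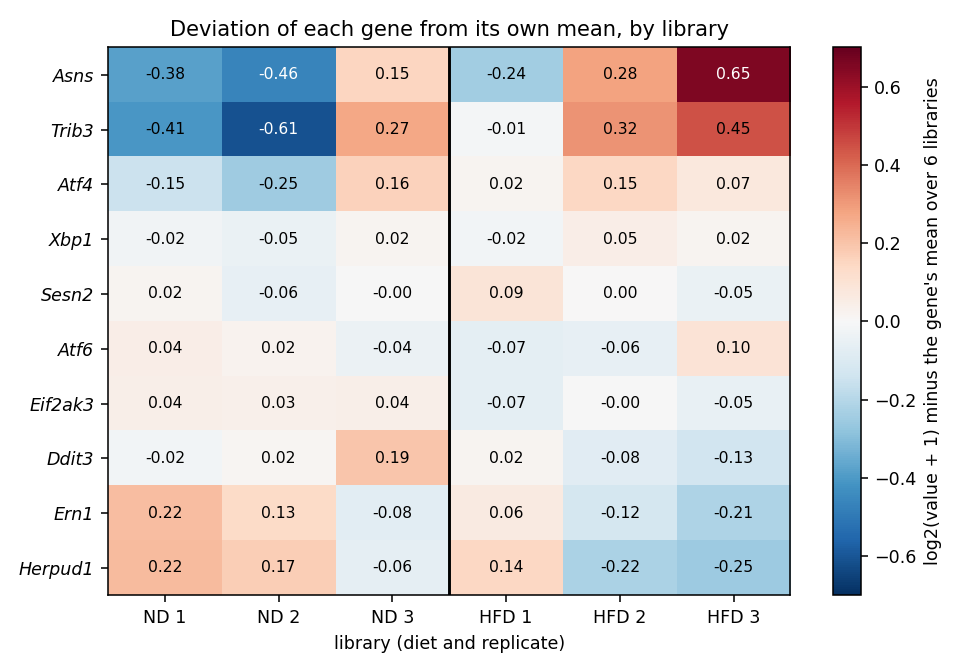
Deviation of log2(value + 1) from each gene's own mean over 6 libraries (colour, red above and blue below, with the value printed) for the 10 genes (rows) and the 6 libraries (columns, the black line dividing ND from HFD). The ND 3 column has the sign of HFD 2 and HFD 3 for *Asns*, *Trib3*, *Atf4*, *Ern1* and *Herpud1*, and HFD 1 is blue for *Asns* and red for *Herpud1*.

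For the 3 members with the widest spread over the libraries, the genes with the most similar profile were found by the root mean square difference of centred log2 values over 6 libraries, among 10793 genes. For *Asns* these were *Emp2* (0.0967), *Chst11* (0.110) and *Efr3b* (0.112), where the median gene was at 0.408. For *Trib3* they were *Dcbld2* (0.059), *Rassf8* (0.077) and again *Emp2* (0.085), against a median of 0.401. For *Herpud1* they were *Trim12a* (0.023), *Ctsf* (0.029) and *Ago4* (0.031), against 0.216. None of these 8 genes is in the pathway lists used here.

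The rest of the pathway was read from 9 lists holding 160 further genes of the table. At an adjusted p of 0.05, 0 of the 160 passed (limma, Benjamini-Hochberg over all genes). At an unadjusted p under 0.05 there were 14 (8.75%, 12 higher and 2 lower in HFD), against 10.6% of all genes. Without ND replicate 3 there were 36 (22.5%, against 17.5% of all genes). In the fit lacking HFD replicate 1 there were 25 (15.6%, against 12.6%). Leaving out ND replicate 1 or 2 gave 11 (against 5.29%) and 13 (against 8.01%). Leaving out HFD replicate 2 or 3 gave 14 each (8.75%, against 5.49% and 9.17%). The pathway's share thus lay below or above that of the table depending on the libraries used. The estimates of 139 of the 160 genes moved by over 1.5 times in at least 1 of the 6 fits that left out a library, and 63 changed sign in at least 1. For the sign counts below, 48.9% of all genes had an estimate above 0.

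Genes downstream of ATF4 in amino acid metabolism had the highest median of the 9 lists. The list of amino acid synthesis enzymes and transporters had 17 of 23 members in the table, 14 with an estimate above 0 and 3 below, and a median log2 fold change of 0.10. At an unadjusted p under 0.05 were 2 of 17 (11.8%, against 10.6% of all genes), 6 without ND replicate 3 (against 17.5%) and 4 without HFD replicate 1 (against 12.6%). *Slc7a11*, the cystine importer xCT, had the smallest p of the whole pathway. Its values were 353, 433 and 557 for ND against 751, 997 and 926 for HFD. Every HFD library was above every ND library (447 ± 103 for ND against 891 ± 127 for HFD, SD, n = 3), with a log2 fold change of 1.01 (SE 0.16, limma adjusted p 0.113). The threshold was passed in the fit lacking ND replicate 3 (1.18, limma adjusted p 0.0115) and with array weights (limma adjusted p 0.00443). These fits called 1.76% and 8.56% of all genes. *Slc7a11* is also a known target of NRF2, and its promoter window held the CARE motif. *Slc6a9*, the glycine transporter GlyT1, was expressed at a low level, 16.0, 14.6 and 18.8 for ND against 36.2, 42.6 and 37.5 for HFD. The diets did not overlap (log2 fold change 1.19, SE 0.26, limma adjusted p 0.217). *Gpt2*, a mitochondrial alanine transaminase, followed, with overlapping values (log2 fold change 0.23, SE 0.12, limma adjusted p 0.552, and 0.13 to 0.34 with 1 library left out). Mean deviations of the list from each gene's mean were -0.19, -0.26 and 0.11 for ND against -0.057, 0.14 and 0.26 for HFD on the log2 scale, in which ND replicate 3 was above HFD replicate 1, as for *Asns*.

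The list of aminoacyl-tRNA synthetases, which charge tRNAs and are induced with ATF4 targets, also holds *Xpot*, a tRNA exporter, and had 13 of 13 members in the table, 11 with an estimate above 0 and 2 below, and a median log2 fold change of 0.085. *Eprs* (log2 fold change 0.21, SE 0.090, limma adjusted p 0.450) was the only one of the 13 at an unadjusted p under 0.05 (7.69%, against 10.6% of all genes). There were 7 without ND replicate 3 (against 17.5%), 5 without HFD replicate 1 (against 12.6%) and 0 when each of the other 4 libraries was left out (against 5.29% to 9.17%). *Mars1* (log2 fold change 0.23, SE 0.12, limma adjusted p 0.552), which overlaps *Ddit3*, and *Aars* (log2 fold change 0.19, SE 0.10, limma adjusted p 0.560) followed. With 1 library left out the estimates ran over 0.13 to 0.29 for *Eprs*, 0.13 to 0.35 for *Mars1* and 0.12 to 0.29 for *Aars*. For 0 of the 13 were the diets without overlap, against 14.5% of all genes. The list's mean deviations were -0.10, -0.17 and 0.12 for ND against -0.069, 0.063 and 0.16 for HFD, so that ND replicate 3 stood close to HFD replicate 3. The CARE motif was found before 3 of the 9 genes of this list with a promoter window (*Aars*, *Gars* and *Tars*). It was found before 2.42% of the 9018 genes of the table that have such a window. In the other lists it was found before 3 of 17 ATF4 and CHOP partners, 2 of 14 amino acid genes, and 0 or 1 gene in each of the remaining 6.

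The partners and feedback genes of ATF4 and CHOP went in both directions, with 20 of 25 members in the table, 8 with an estimate above 0 and 12 below, and a median log2 fold change of -0.061. At an unadjusted p under 0.05 were 3 of 20, 15.0% against 10.6% of all genes. The count was 8 in the absence of ND replicate 3 (against 17.5%), 6 in that of HFD replicate 1 (against 12.6%) and 5 in that of HFD replicate 3 (against 9.17%). *Gdf15*, a secreted stress cytokine and a target of ATF4 and CHOP, had values of 698, 581 and 738 for ND against 487, 432 and 477 for HFD. All HFD libraries were below all ND libraries (log2 fold change -0.52, SE 0.10, limma adjusted p 0.181), so the estimate of *Gdf15* and those of *Asns* and *Trib3* had opposite signs. *Trib1*, a pseudokinase related to *Trib3*, had values of 212, 258 and 249 for ND against 323, 360.0 and 296 for HFD, without overlap (log2 fold change 0.44, SE 0.11, limma adjusted p 0.273). *Jdp2*, a repressor of the AP-1 and ATF family, was low, at 90.2 ± 4.08 for ND against 118 ± 3.93 for HFD (SD, n = 3), also without overlap (log2 fold change 0.38, SE 0.13, limma adjusted p 0.353). The 2 other sestrin genes, *Sesn1* and *Sesn3*, had estimates of -0.14 and -0.16 with overlapping values.

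The eIF2 kinases, eIF2 subunits, the exchange factor eIF2B and their regulators had 20 of 20 members in the table, 11 with an estimate above 0 and 9 below, and a median log2 fold change of 0.022. The kinases other than PERK had estimates of -0.0073 for *Eif2ak1* (HRI), -0.16 for *Eif2ak2* (PKR, also an interferon-induced gene) and -0.054 for *Eif2ak4* (GCN2), with overlapping values. Leaving out 1 library moved *Eif2ak2* over -0.24 to -0.085. *Impact*, which encodes an inhibitor of GCN2 activation, had values of 1879.9, 1955 and 1880.0 for ND against 2129, 2137 and 2257 for HFD. The HFD libraries lay above the ND libraries (log2 fold change 0.19, SE 0.059, limma adjusted p 0.318), and *Impact* was the single gene of the 20 at an unadjusted p under 0.05 (5.00%, against 10.6% of all genes). Leaving out ND replicate 3 brought this to 6 (against 17.5%), leaving out HFD replicate 1 to 3 (against 12.6%) and leaving out HFD replicate 3 to 2 (against 9.17%). *Eif2d* had an estimate of -0.15 and *Ppp1r15a*, the stress-induced eIF2 phosphatase subunit GADD34, of -0.19, both with overlap.

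The chaperones and folding enzymes driven by ATF6 and XBP1 had 21 of 23 members in the table, 15 with an estimate above 0 and 6 below, and a median log2 fold change of 0.040. *Hspa5*, which encodes the master ER chaperone BiP, had values of 13948, 12896 and 15176 for ND against 13781, 13782 and 14174 for HFD, an estimate of -0.0067 and an interval of -0.17 to 0.16. *Hsp90b1* (0.071) and *Dnajb9* (-0.0082), a target of XBP1, also overlapped. The smallest p of the list was that of *Ero1l*, the ER oxidase that reoxidises protein disulphide isomerase and is also known as a hypoxia-induced gene. Its values were 1249, 1325 and 1365 for ND against 1548, 1646 and 1734 for HFD, without overlap (log2 fold change 0.32, SE 0.069, limma adjusted p 0.196). *Hyou1* (log2 fold change 0.16, SE 0.084, limma adjusted p 0.552) and *Calr* (log2 fold change 0.13, SE 0.070, limma adjusted p 0.586) followed, with ND replicate 3 within the HFD range in both and estimates of 0.10 to 0.25 for *Hyou1* when 1 library was left out. *Ero1l* was the single gene of the 21 at an unadjusted p under 0.05 (4.76%, against 10.6% of all genes), and 4 genes were there without ND replicate 3 (against 17.5%).

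ER-associated degradation, the pathway in which *Herpud1* works, had 20 of 21 members in the table, 16 with an estimate above 0 and 4 below, and a median log2 fold change of 0.030. At an unadjusted p under 0.05 were 0 of the 20, against 10.6% of all genes, and 1 without ND replicate 2 (against 8.01%), without ND replicate 3 (against 17.5%) and without HFD replicate 1 (against 12.6%). *Edem1*, a lectin that hands glycoproteins to degradation, was lower in every HFD library (log2 fold change -0.13, SE 0.061, limma adjusted p 0.517), and its relative *Edem2* had an estimate of 0.16 with overlap. *Nploc4* had 0.093 without overlap. The values of *Edem1* and *Nploc4* were the only 2 of the 20 without overlap, against 14.5% of all genes.

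The translocon and export genes targeted by XBP1 had 26 of 27 members in the table, 20 with an estimate above 0 and 6 below, and a median log2 fold change of 0.035. *Sec23b*, a coat protein of vesicles leaving the ER, had values of 979.8, 1006 and 1012 for ND against 1134, 1130.0 and 1146 for HFD without overlap (log2 fold change 0.19, SE 0.060, limma adjusted p 0.326), and was the single gene of the 26 at an unadjusted p under 0.05 (3.85%, against 10.6% of all genes). *Lman1* (0.13) and *Sec24d* (0.10) overlapped between the diets. In the list of sensor control and other ER stress factors (18 of 20 members in the table, 11 with an estimate above 0 and 7 below, and a median log2 fold change of 0.026), 4 of 18 were at an unadjusted p under 0.05, 22.2% against 10.6% of all genes. There were 3 of 18 without ND replicate 3 (16.7%, against 17.5%) and 4 without HFD replicate 1 (22.2%, against 12.6%). Leaving out ND replicate 1 (against 5.29%) or HFD replicate 3 (against 9.17%) gave 2. Leaving out ND replicate 2 (against 8.01%) or HFD replicate 2 (against 5.49%) gave 3. *Map3k5*, the kinase ASK1 that relays IRE1 signals to JNK, had values of 810.2, 729 and 735 for ND against 626, 584 and 611 for HFD, all HFD libraries being below ND (log2 fold change -0.32, SE 0.074, limma adjusted p 0.239). *Wfs1*, an ER membrane protein that is itself a stress target, was at 265 ± 42.4 for ND against 348 ± 24.1 for HFD (SD, n = 3) without overlap (log2 fold change 0.40, SE 0.12, limma adjusted p 0.318). *Nfya*, a subunit of the factor that binds the CCAAT part of the ERSE, had an estimate of 0.16, also without overlap.

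Transcripts known to be cut by IRE1 had 6 of 8 members in the table, 2 with an estimate above 0 and 4 below, and a median log2 fold change of -0.070. *Bloc1s1*, the most widely used reporter of this cleavage, had values of 248, 242 and 294 for ND against 301, 266 and 247 for HFD, overlapping between the diets with an interval of -0.20 to 0.31. *Hgsnat*, a lysosomal acetyltransferase, had values of 1897, 1783 and 2346 for ND against 2476, 2661 and 2555 for HFD without overlap (log2 fold change 0.36, SE 0.10, limma adjusted p 0.278). It passed without ND replicate 3 (limma adjusted p 0.0159), where 1.76% of all genes did, and with array weights, where 8.56% did. *Col6a1* (-0.68, interval -1.98 to 0.62) and *Sparc* (-0.79, interval -2.29 to 0.72) are stromal genes at low levels here, 9.99 to 87.0 for *Sparc*. Both were highest in ND replicate 2 and HFD replicate 2, as was the summed level of the 3 stromal markers in the table (*Col1a1*, *Col1a2* and *Col3a1*, 549 and 337 in those libraries and 51.8 to 308 in the others). With 1 library left out, estimates ran over -1.40 to -0.29 for *Col6a1* and -1.56 to -0.11 for *Sparc*. Of the 6 genes of the list, 1 was at an unadjusted p under 0.05 (16.7%, against 10.6% of all genes) and 3 without HFD replicate 2 (against 5.49%). The part of stromal cells in these values was not tested.

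**Figure D5:**
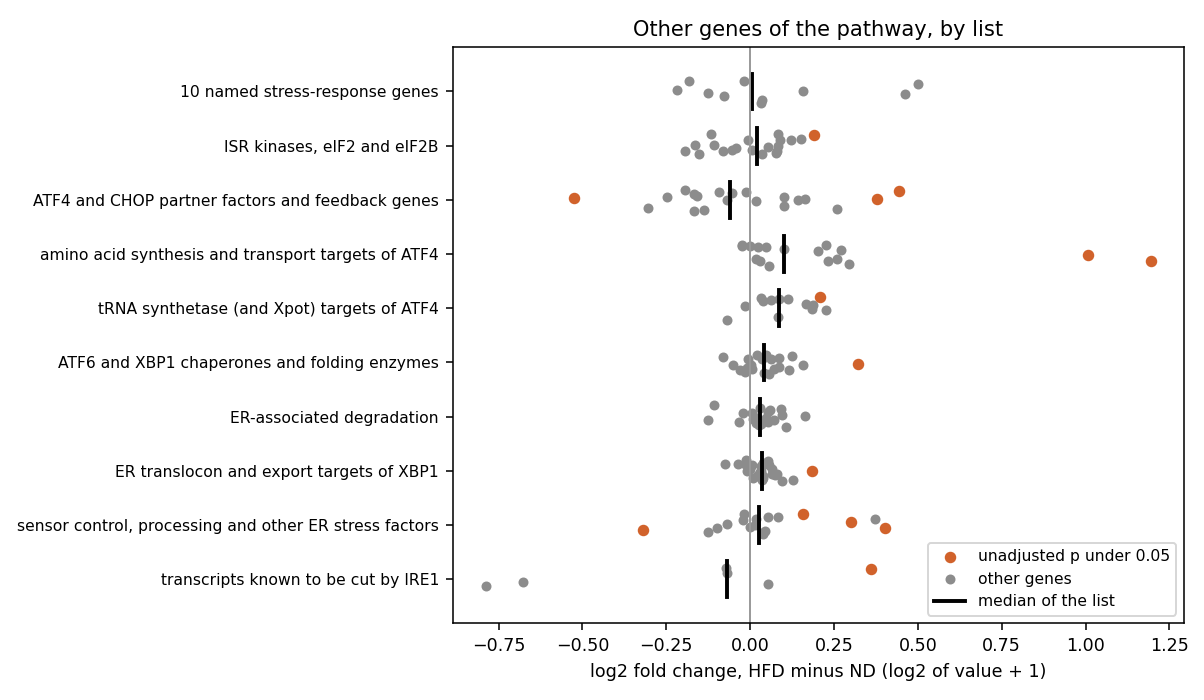
Log2 fold change between diets (horizontal axis, HFD minus ND) of the 10 genes (top row) and of the genes in 9 pathway lists, each point a gene, orange where the unadjusted p was under 0.05, with a black bar at the median of each list. *Slc7a11* and *Slc6a9* lie apart at 1.01 and 1.19 in the amino acid row, *Gdf15* at -0.52 in the partner row and *Sparc* and *Col6a1* at -0.79 and -0.68 in the row of transcripts cut by IRE1, and the list medians lie between -0.070 and 0.10.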

How the data were processed

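RNA levels were measured in 6 libraries of mouse bone marrow-derived macrophages under hypoxia, 3 per diet. Per the labels' protocols, stranded total-RNA libraries were made after removal of ribosomal RNA and read as single ends of 75 bases. The authors' deposited values are a signal per gene: reads estimated per gene and divided by a size factor for each library. Between 5 and 1000, 57.0% to 58.4% of these signal values were multiples of a fixed step (tolerance 0.02 reads), compared with 3.87% to 3.97% for arbitrary steps, too few to recover whole reads across the table, and a count test, which the design held ready, was not used. The step served to estimate depth. The submitters' processing notes name STAR, Partek and mm10. The annotation, filters and strand setting are not given in the sources used here. NC in a column's name was read as ND, since the labels have no further diet.

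Log2(value + 1) of all 13232 genes was compared with limma 3.58.1 in R 4.3.3 (mean-variance trend, two-sided), with Benjamini-Hochberg adjustment over all genes and a threshold of 0.05. SE and 95% intervals are limma's moderated ones. Fold changes on this scale understate the change of low genes. The procedure was tested on simulated data with equal noise in all libraries and larger changes than those of the 10 genes. That test does not cover libraries of unequal noise or small changes. Counting error covers sampling of reads only, since reads lacking molecular identifiers may be copies of a molecule. The 10 genes and the lists were chosen with earlier results of these data known, so no test is made over them alone. Named genes were the 10, the 3 with the smallest p in each list, and for the 3 members with the largest spread the 3 genes (mean of at least 100) with the most similar profile. Other genes named were chosen as textbook members of their list. Same-numbered libraries had residual correlations of 0.089, -0.11 and 0.027, and differently numbered ones of -0.24 to 0.26. With 3 libraries per diet these values cannot show whether the numbers pair the libraries, and the main fit does not pair them. Alternatives were 2 other pseudocounts, 2 filters, 2 scalings, no trend, array weights, a replicate block and leaving out each library.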

Additional observations from a re-analysis of the deposited data

How the results depend on the processing

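No gene passed the adjusted threshold in limma (1401 at an unadjusted p under 0.05), nor with pseudocounts of 0.1 or 10, a minimum of 10 in every library, a mean of at least 100, quantile normalization, equal column totals or no trend. Array weights called 1133 genes, 1 of the 10 members (*Trib3*) and 16 of the 160 pathway genes. By list these were 2 of the eIF2 genes, 4 ATF4 and CHOP partners, 2 amino acid genes, 1 tRNA synthetase, 2 chaperones, 1 degradation gene, 1 export gene, 2 sensor control genes and 1 transcript cut by IRE1. These weights ranged from 0.441 for ND replicate 3 to 3.09 for HFD replicate 2. The cause was not tested.

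The replicate block called 31 genes, 1 of them in the pathway (*Slc7a11*, limma adjusted p 0.0315, an amino acid gene) and 0 of the members, with 4 of the 10 at an unadjusted p under 0.05 against 11.4% of all genes. Whether the numbers pair the libraries could not be settled, so this fit is given as an alternative only. Leaving out a library called 0 to 233 genes, the highest number being without ND replicate 3. It called 0 members in all 6 fits, 0 to 2 pathway genes, 0 to 1 amino acid genes (*Slc7a11*) and 0 to 1 transcripts cut by IRE1 (*Hgsnat*), each without ND replicate 3.

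Of 150 values for the members, 146 kept direction and side of the threshold. *Atf6* (-0.018) ran from -0.070 to 0.011 without 1 library and was 0.0051 without HFD replicate 2. *Sesn2* (0.031) ran from -0.0065 to 0.062. Of 521 values for 35 other named genes, 497 kept both and 24 came to pass the threshold. DESeq2 was not run, since the values are not counts. At 3 libraries per diet, intervals for *Asns* and *Trib3* were about 1 wide on the log2 scale.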
